A study of Mus musculus with 8 samples.

Results

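The genes described here mark the marginal zone and follicular B cells of the mouse spleen or carry the Notch signal that separates these fates. They are Dll1, Notch2, Rbpj, Dtx1, Hes1, Cr2, Cd1d1, Cd9 and Fcer2a, chosen by gene symbol. They make up 9 of the 51826 genes in the count table, and all 9 were among the 16484 genes that passed a filter on low counts and were tested. RNA sequencing had been performed on total splenocytes of 3-month-old female Balb/c mice, with 4 mice in each group. One group had received all-trans retinoic acid (tRA), the active form of vitamin A, by mouth every day from weaning at a dose of 1 mg/kg body weight, and the control group had received canola oil, the vehicle. None of the mice was given pristane, the oil used to induce lupus in the same strain. The treatment field of the sample labels gives the tRA dose for all 8 samples, controls included, and the groups follow the sample titles.

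Marginal zone B cells sit at the border of the white pulp and respond quickly to blood-borne antigen, whereas follicular B cells recirculate through the follicles. In the mouse, Dll1 on stromal cells engages Notch2 on the B cell, and cleavage frees the intracellular part of Notch2, which joins Rbpj on DNA and switches on targets such as Hes1 and Dtx1. Mice whose B cells lack Notch2 or Rbpj lose marginal zone B cells. The question addressed was whether oral tRA was followed by a different level of any of these genes in the spleen.

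The total of counts on genes ranged from 30919272 to 37539631 in the control libraries (median 33879268) and from 31810417 to 35165876 in the tRA libraries (median 32899174.5). Levels are given as CPM, a gene's counts relative to the effective library size after scaling by trimmed means (TMM). B cell transcripts were abundant, as Cd79a, which encodes a chain of the B cell receptor, averaged 1333 CPM over the 8 libraries. The T cell kinase gene Lck averaged 518 CPM. The summed CPM of 12 genes found in all B cells was 9360, 8413, 8411 and 7622 in control replicates 1 to 4 and 8539, 8399, 8311 and 8111 in tRA replicates 1 to 4. Control replicates 1 and 4 were the highest and the lowest of the 8, and the groups overlapped. In bulk RNA, fewer cells of a type and less RNA per cell cannot be told apart.

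None of the 9 genes reached the study's FDR threshold of 0.1 between tRA and control in the quasi-likelihood test of edgeR, with p adjusted over all genes tested by the Benjamini-Hochberg method. The same test called 0 of the 16484 genes (0.0%), and DESeq2 called 44 genes (0.267%), none of them among the 9. At an unadjusted p under 0.05, edgeR called 1 of the 9, Hes1, which was lower with tRA, against 1070 genes or 6.49% of all genes in either direction and 3.55% in that direction. None of the 9 was higher with tRA at this threshold, as 2.94% of all genes were. Without control replicate 2, Fcer2a (0.0304) and Dll1 (0.049) also had an unadjusted p under 0.05 by edgeR's quasi-likelihood test, and without control replicate 3 none of the 9 did. The tRA and control libraries overlapped for all 9, while they did not overlap for 3.54% of all genes. In two-sided exact permutation tests of log2 CPM, the lowest p of the 9 was 0.0571, for Hes1. Of the 9 log2 fold changes, 4 were positive and 5 were negative, with a median of -0.02 against 0.00136 over all genes tested. With the library total alone as the scaling, 5 were positive and 4 negative, and with 1 library left out the median lay between -0.05 and 0.03.

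**Figure D1:**
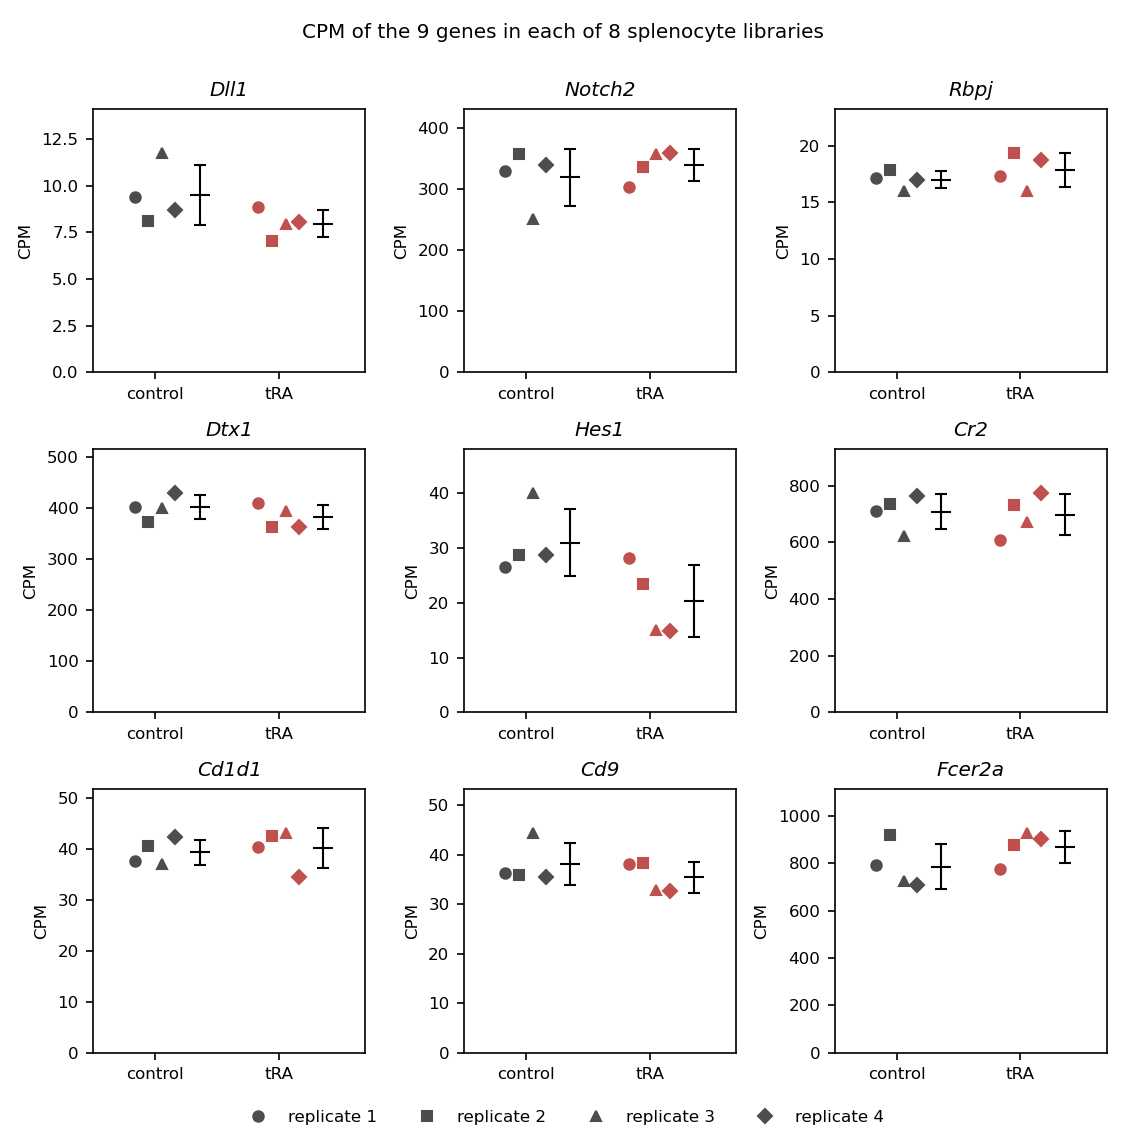
CPM (vertical axes, from 0) of each of the 9 genes in the 4 control (grey) and 4 tRA (red) libraries, with a marker shape for each replicate and the group mean with its SD as a bar. The groups overlap in all panels, and Hes1 spans the widest range relative to its level, from 14.8 to 40.0 CPM.

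Dll1, the Delta-like ligand that stromal cells show to Notch2, was a low transcript in these suspensions. Its gene (ENSMUSG00000014773) lies at chr17:15367354-15376872 on the minus strand of GRCm38. Dll1 CPM was 9.36, 8.12, 11.8 and 8.69 in control replicates 1 to 4 and 8.83, 7.05, 7.95 and 8.04 in tRA replicates 1 to 4. Control replicate 3 stood highest, and the other control libraries lay within or just above the range of the tRA libraries. The group means were 9.49 ± 1.60 (SD, n = 4) and 7.97 ± 0.726 (SD, n = 4). For Dll1, the log2 fold change of tRA over control was -0.25 with an SE of 0.14 and a 95% interval from -0.55 to 0.05 (FDR 0.78, edgeR's quasi-likelihood test). Without control replicate 3, the value for Dll1 was -0.14. A two-sided exact permutation test of its log2 CPM gave p = 0.114, where the smallest p that 4 against 4 libraries allow is 0.0286. A long noncoding RNA gene on the opposite strand, A930024N18Rik, shares 867 exon bases with Dll1 and had 119 counts over the 8 libraries against 2352 for Dll1. Counting by strand is not stated, so reads of this pair cannot be told apart where they overlap.

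Of the 5 Notch ligand genes of the mouse, 4 passed the filter, and 0 of them had an unadjusted p under 0.05. Dll4 had fewer than 1 CPM on average and a log2 fold change of -0.06. Jag1, a ligand of the Jagged type, averaged 4.03 CPM in controls and 4.23 with tRA, with a log2 fold change of 0.07. Jag2 averaged 5.24 and 5.04 CPM, with a log2 fold change of -0.06. Per kilobase of exon, the control level of Dll1 was 2.25 CPM, that of Jag2 was 0.752 and that of Jag1 was 0.692, so Dll1 was the most abundant ligand transcript on this scale. Genes of the stromal cells that present the ligand were also low, as 5 of 10 follicular dendritic cell and stroma genes (Madcam1, Pdpn, Col1a1, Col3a1 and Ccl19) averaged under 1 CPM. The highest CPM of these 10 was that of Mfge8, which encodes a bridging protein for dying cells, at 11.1. The summed CPM of the 10 was 18.4, 21.4, 24.6 and 19.3 in control replicates 1 to 4 and 17.0, 18.1, 24.3 and 16.8 in tRA replicates 1 to 4. Replicate 3 held the highest sum in each group, whereas Dll1 was highest in replicate 3 of the control group alone, and the part of stromal cells in the Dll1 values was not tested.

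Notch2, the receptor on which marginal zone B cells depend, was the most abundant Notch receptor transcript. Its gene (ENSMUSG00000027878) lies at chr3:98013527-98150361 on the plus strand. Notch2 CPM was 330, 357, 251 and 340 in control replicates 1 to 4 and 303, 335, 357 and 359 in tRA replicates 1 to 4. Control replicate 3 was the lowest of the 8 libraries, and the other 7 lay close together in both groups. Means were 319 ± 46.8 CPM (SD, n = 4) in controls and 339 ± 26.1 (SD, n = 4) with tRA. Notch2 had a log2 fold change of 0.09 with an SE of 0.11 and a 95% interval from -0.15 to 0.33 (FDR 0.885, edgeR's quasi-likelihood test), which allows a change in level between -10.1% and 25.3%. Without control replicate 3, the log2 fold change of Notch2 was -0.02, so the sign of this small difference rested on that library. Gm42820, annotated on the same strand within Notch2, shares 541 exon bases with it and had 347 counts over the 8 libraries against 88311 for Notch2.

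Among the 4 receptor genes, 2 had a positive and 2 a negative log2 fold change, and 0 had an unadjusted p under 0.05. Notch1, the receptor that directs T cell fate in the thymus, averaged 157 CPM in controls and 174 with tRA, with a log2 fold change of 0.15. Notch3 and Notch4, receptors best known from vessels, averaged 1.57 and 7.63 CPM in controls. Their log2 fold changes were -0.18 for Notch3 and -0.26 for Notch4. Per kilobase of exon, Notch2 stood at 29.6 CPM in controls and Notch1 at 11.0. The ratio of Notch2 CPM to Notch1 CPM was 2.37, 2.12, 2.03 and 1.74 in control replicates 1 to 4 and 1.99, 2.09, 1.88 and 1.87 in tRA replicates 1 to 4. Control replicates held both the highest and the lowest ratio, so the tRA libraries lay inside the control range.

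The 18 genes that prepare ligand and receptor were all tested, and 13 had a positive and 5 a negative log2 fold change, with a median of 0.02 that was 0.05 with the library total alone and 0.04 without tRA replicate 1. None had an unadjusted p under 0.05. Adam10, the protease that cuts Notch2 at the cell surface once a ligand is bound, had 128, 131, 99.7 and 112 CPM in control replicates 1 to 4 and 126, 134, 136 and 140 in tRA replicates 1 to 4. Control replicate 3 was again the lowest, and tRA replicate 1 lay below the upper controls, so the groups overlapped. Its log2 fold change was 0.18 (FDR 0.776, edgeR's quasi-likelihood test). Taok3, a kinase needed for Adam10 to reach the surface of marginal zone precursors, had a log2 fold change of 0.14. The fringe genes Lfng and Mfng, whose enzymes add sugars to Notch and raise its response to Delta-like ligands, had log2 fold changes of 0.09 and 0.01. Among the genes of gamma-secretase, which makes the final cut, Psenen had a log2 fold change of -0.17, Aph1b of 0.31 and Ncstn of 0.09.

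Rbpj, the DNA-binding protein that Notch turns from repressor to activator, had the lowest relative spread of the 9 genes between control libraries, with a coefficient of variation of 4.45%. Its gene (ENSMUSG00000039191) lies at chr5:53466152-53657362 on the plus strand. Rbpj CPM was 17.2, 17.8, 16.0 and 16.9 in control replicates 1 to 4 and 17.4, 19.4, 16.0 and 18.7 in tRA replicates 1 to 4. Replicate 3 was the lowest in each group, and tRA replicates 2 and 4 exceeded all controls. Means were 17.0 ± 0.755 CPM (SD, n = 4) and 17.9 ± 1.51 (SD, n = 4). Rbpj had a log2 fold change of 0.07 with an SE of 0.09 and a 95% interval from -0.12 to 0.27 (FDR 0.883, edgeR's quasi-likelihood test). In level, this interval runs from -8.24% to 20.3%. Leaving out tRA replicate 2 gave Rbpj 0.03, and leaving out tRA replicate 3 gave 0.12.

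Of the 10 genes of the nuclear complex and its cofactors, 9 had a positive and 1 a negative log2 fold change, with a median of 0.10 that was 0.03 without control replicate 3 and 0.05 without tRA replicate 4. Their counts of signs were the same under each of 4 scalings, and 0 of the 10 had an unadjusted p under 0.05. Spen, a corepressor that binds Rbpj and holds Notch targets silent, had 158, 175, 123 and 186 CPM in control replicates 1 to 4 and 148, 172, 227 and 223 in tRA replicates 1 to 4. The tRA replicates 3 and 4 lay above all controls, and tRA replicates 1 and 2 lay among them. The log2 fold change of Spen was 0.26 (FDR 0.792, edgeR's quasi-likelihood test). The Mastermind coactivators Maml1, Maml2 and Maml3, which lock the intracellular part of Notch onto Rbpj, had log2 fold changes of 0.07, 0.10 and 0.19. The acetylase gene Ep300 had the highest CPM of this list, 270.1 on average, with a log2 fold change of 0.10. The deacetylase gene Hdac1 was the 1 gene with a negative value, -0.14.

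Dtx1, a Notch target that encodes the Deltex ubiquitin ligase and is high in marginal zone B cells, stood at 76.2 CPM per kilobase of exon in controls, beside 74.5 for Myc, the next of the target genes on this scale. Its gene (ENSMUSG00000029603) lies at chr5:120680202-120711927 on the minus strand. Dtx1 CPM was 403, 374, 401 and 430 in control replicates 1 to 4 and 409, 363, 395 and 362 in tRA replicates 1 to 4. Control replicate 4 was the highest and tRA replicates 2 and 4 were the lowest, with the other libraries of both groups mixed between them. Means were 402 ± 23.1 CPM (SD, n = 4) and 382 ± 23.6 (SD, n = 4). Dtx1 had a log2 fold change of -0.07 with an SE of 0.07 and a 95% interval from -0.23 to 0.09 (FDR 0.86, edgeR's quasi-likelihood test). With 1 library left out, it lay between -0.11 and -0.04. The exact permutation test of Dtx1 gave p = 0.257. In level, the interval of Dtx1 runs from -14.9% to 6.34%. The ratio of Dtx1 to its receptor Notch2 in the same library averaged 1.28 ± 0.229 in controls and 1.14 ± 0.149 with tRA (SD, n = 4), and the groups overlapped.

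Hes1, the repressor gene through which Notch blocks other fates in many tissues, varied most of the 9 genes, with its highest library 2.71 times its lowest. Its gene (ENSMUSG00000022528) lies at chr16:30064384-30067796 on the plus strand. Hes1 CPM was 26.5, 28.7, 40.0 and 28.6 in control replicates 1 to 4 and 28.2, 23.4, 14.9 and 14.8 in tRA replicates 1 to 4. Control replicate 3 was far above the other controls, tRA replicate 1 lay among the controls, and tRA replicates 3 and 4 were the lowest of the 8. Means were 30.9 ± 6.14 CPM (SD, n = 4) and 20.3 ± 6.61 (SD, n = 4), from counts of 484 to 1385 per library. The log2 fold change of Hes1 was -0.61 with an SE of 0.21 and a 95% interval from -1.08 to -0.14, and its unadjusted p was 0.0158 with an FDR of 0.757 in edgeR's quasi-likelihood test. DESeq2 gave Hes1 a log2 fold change of -0.60 and an FDR of 0.312, and over all alternatives its FDR lay between 0.2045 and 0.9995. The two-sided exact permutation test of its log2 CPM gave p = 0.0571. Without control replicate 3, the log2 fold change of Hes1 was -0.46 with an unadjusted p of 0.0544 in edgeR's quasi-likelihood test. Leaving out tRA replicate 3 gave -0.48, as did leaving out tRA replicate 4, and leaving out tRA replicate 1 gave -0.81.

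The low libraries for Hes1 were also low for immediate early genes, which cells switch on within minutes of a stimulus. The summed CPM of 11 such genes was 16420, 15570, 14630 and 13360 in control replicates 1 to 4 and 15690, 12110, 5606 and 7093 in tRA replicates 1 to 4. As with Hes1, tRA replicate 1 lay among the controls and tRA replicates 3 and 4 were the lowest, whereas control replicate 3, the highest for Hes1, was not the highest here. The highest CPM of the 11 was that of Fos, 2700 on average. All 11 had a negative log2 fold change, as 49.7% of all genes tested did. An unadjusted p under 0.05 was found for 3 of them (Fosb, Jun and Egr1), against 3.55% of all genes in that direction. These 11 genes were listed with earlier results of these data known, so the shares over all genes do not test them. The median of the 11 was -0.46. This median was -0.88 without tRA replicate 1, -0.29 without tRA replicate 3 and -0.67 with limma-voom. The part of these genes in the Hes1 values was not tested.

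Of 10 Notch target genes, 8 were tested, and 2 had a positive and 6 a negative log2 fold change, with a median of -0.18 that lay between -0.23 and -0.11 with 1 library left out. Hes1 and Nrarp had an unadjusted p under 0.05, both lower with tRA, as 3.55% of all genes were. By the quasi-likelihood test of edgeR, 0 of the 8 reached an FDR under 0.1. Nrarp, which encodes a feedback inhibitor that binds the intracellular part of Notch, had 2.11, 3.92, 3.29 and 3.00 CPM in control replicates 1 to 4 and 2.44, 1.92, 1.93 and 1.83 in tRA replicates 1 to 4. Control replicate 1 lay among the tRA libraries and the other controls lay above them, so the groups overlapped. Nrarp had a log2 fold change of -0.60 (FDR 0.757, edgeR's quasi-likelihood test). Hey1, a repressor gene of the Hes family, averaged 1.37 CPM in controls and 0.836 with tRA, with a log2 fold change of -0.71 (FDR 0.78, edgeR's quasi-likelihood test). Hes6, a relative that opposes Hes1, had a log2 fold change of -0.18, and Hes5 also had -0.18. Myc, a target of Notch in T cell precursors, had 0.01, and Heyl had 0.41 at less than 1 CPM. Hey2 and Hes7 did not pass the filter.

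Of 10 genes that inhibit Notch or turn it over, 8 were tested, 3 with a positive and 5 with a negative log2 fold change and a median of -0.09. This median was -0.06 with the library total alone and lay between -0.12 and -0.03 with 1 library left out. Numb, which sends Notch into endosomes, had 47.0, 47.1, 40.3 and 46.7 CPM in control replicates 1 to 4 and 50.2, 50.2, 50.6 and 49.7 in tRA replicates 1 to 4. All tRA libraries lay above all controls, as they did for 1.91% of all genes tested, and Numb was the 1 gene of the Notch lists whose groups did not overlap. Its log2 fold change was 0.15 (FDR 0.761, edgeR's quasi-likelihood test). The Deltex relatives Dtx3 and Dtx3l had log2 fold changes of -0.16 and 0.23. Over all 57 genes of the Notch lists, 52 were tested, 30 with a positive and 22 with a negative log2 fold change, and the median was 0.01. By the quasi-likelihood test of edgeR, 0 of the 52 reached an FDR under 0.1. An unadjusted p under 0.05 was found for 2, both lower with tRA, as 3.55% of all genes were.

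**Figure D2:**
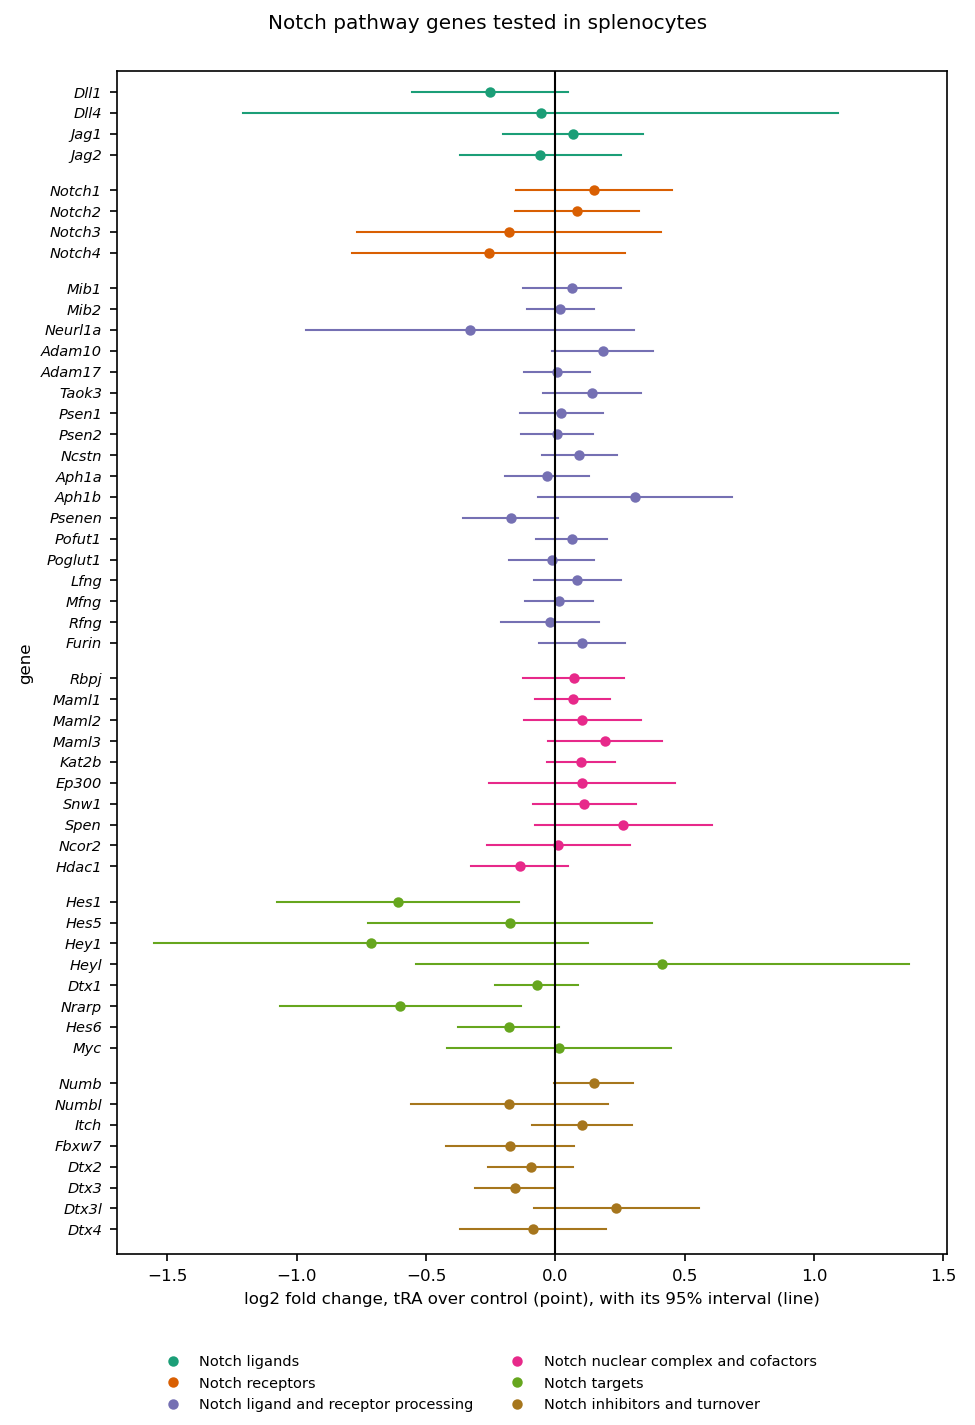
Log2 fold change of tRA over control (horizontal axis, points) with its 95% interval (lines) for the 52 Notch pathway genes tested, grouped by role and coloured by list. The intervals of Hes1 and Nrarp end below 0, while those of the other 50 genes cross 0 and the median of the 52 points is 0.01.

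Cr2, which encodes the complement receptors CD21 and CD35 of the mouse and is highest on marginal zone B cells, was measured with 19898 to 26317 counts per library. Its gene (ENSMUSG00000026616) lies at chr1:195136811-195176716 on the minus strand. Cr2 CPM was 712, 736, 621 and 765 in control replicates 1 to 4 and 608, 733, 674 and 775 in tRA replicates 1 to 4. The tRA group held both the lowest and the highest library, so the control range lay inside the tRA range. Means were 709 ± 62.1 CPM (SD, n = 4) and 697 ± 72.8 (SD, n = 4). Cr2 had a log2 fold change of -0.02 with an SE of 0.10 and a 95% interval from -0.23 to 0.19 (FDR 0.976, edgeR's quasi-likelihood test). In level, this interval runs from -15.0% to 14.0%. With the library total alone as the scaling, the log2 fold change of Cr2 turned to 0.01.

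Cd1d1, which presents lipids to NKT cells and is high on marginal zone B cells, lies at chr3:86995834-86999441 on the minus strand (ENSMUSG00000028076). Cd1d1 CPM was 37.7, 40.7, 37.1 and 42.3 in control replicates 1 to 4 and 40.5, 42.6, 43.2 and 34.5 in tRA replicates 1 to 4. The lowest and the highest library both belonged to the tRA group, replicates 4 and 3. Means were 39.5 ± 2.47 CPM (SD, n = 4) and 40.2 ± 3.97 (SD, n = 4). Cd1d1 had a log2 fold change of 0.03 with an SE of 0.09 and a 95% interval from -0.16 to 0.22 (FDR 0.965, edgeR's quasi-likelihood test). The neighbouring copy Cd1d2, on the plus strand and annotated as a polymorphic pseudogene, shares 14.4% of the 100-base windows of the Cd1d1 transcript exactly, so the counting could split or drop reads of the pair. Cd1d2 held between 3.67% and 6.0% of their joint counts (median 5.13%), and its log2 fold change was -0.30 (FDR 0.804, edgeR's quasi-likelihood test). The sum of both genes had a log2 fold change of 0.01 (FDR 0.985, edgeR's quasi-likelihood test).

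Cd9, a tetraspanin on marginal zone B cells and also on plasma cells and platelets, lies at chr6:125460266-125494791 on the minus strand (ENSMUSG00000030342). Cd9 CPM was 36.4, 35.9, 44.4 and 35.5 in control replicates 1 to 4 and 38.03, 38.2, 32.8 and 32.6 in tRA replicates 1 to 4. Control replicate 3 was the highest of the 8, as for Hes1 and Dll1, and tRA replicates 3 and 4 were the lowest, while the rest lay close together. Means were 38.1 ± 4.25 CPM (SD, n = 4) and 35.4 ± 3.13 (SD, n = 4). Cd9 had a log2 fold change of -0.10 with an SE of 0.10 and a 95% interval from -0.31 to 0.11 (FDR 0.848, edgeR's quasi-likelihood test). Without control replicate 3 it was -0.03. An opposite-strand transcript, Gm26728, shares 218 exon bases with Cd9 and had 19 counts over the 8 libraries against 9870 for Cd9. Among 8 platelet and megakaryocyte genes, 6 averaged under 1 CPM (Pf4, Ppbp, Gp9, Gp1bb, Gp6 and Treml1), and the highest CPM was that of the integrin gene Itgb3, 128. The summed CPM of those 8 was 144, 126, 135 and 128 in control replicates 1 to 4 and 135, 127, 149 and 140 in tRA replicates 1 to 4, and Itgb3 made up most of each sum. Ppbp had at most 24 counts in a library and was not tested, and its tRA libraries lay below all controls.

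Fcer2a, which encodes the low-affinity IgE receptor CD23 and marks follicular B cells, had the highest level of the 9 genes, both in CPM and per kilobase of exon. Its gene (ENSMUSG00000005540) lies at chr8:3681737-3694175 on the minus strand. Fcer2a CPM was 791, 922, 725 and 710 in control replicates 1 to 4 and 775, 880, 929 and 902 in tRA replicates 1 to 4. Control replicates 3 and 4 were the lowest, while control replicate 2 lay among the 3 highest tRA libraries. Means were 787 ± 96.8 CPM (SD, n = 4) and 872 ± 67.6 (SD, n = 4). Fcer2a had a log2 fold change of 0.15 with an SE of 0.10 and a 95% interval from -0.07 to 0.37 (FDR 0.796, edgeR's quasi-likelihood test). It lay between 0.10 and 0.23 with 1 library left out. The exact permutation test of Fcer2a gave p = 0.229. In level, the interval runs from -4.82% to 28.8%.

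The markers of the B cell fates were also set against each other within a library. The ratio of Cr2 CPM to Fcer2a CPM was 0.900, 0.798, 0.857 and 1.08 in control replicates 1 to 4 and 0.785, 0.833, 0.725 and 0.859 in tRA replicates 1 to 4. Control replicates 1 and 4 lay above all tRA libraries, and control replicates 2 and 3 lay among them. The mean ratio was 0.908 ± 0.120 in controls and 0.800 ± 0.0588 with tRA (SD, n = 4).

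Of 13 genes known from marginal zone B cells, 4 had a positive and 9 a negative log2 fold change, with a median of -0.09, and with the library total alone these counts were 5 and 8. Their median lay between -0.125 and -0.04 with 1 library left out. The summed CPM of the 13 averaged 1619 ± 75.4 in controls and 1543 ± 64.7 with tRA (SD, n = 4), and the groups overlapped. Mzb1, a chaperone of immunoglobulin assembly in marginal zone B cells and plasma cells, was the 1 gene of this list with an unadjusted p under 0.05. At this threshold, 3.55% of all genes were lower with tRA. Mzb1 CPM was 87.2, 76.5, 94.4 and 80.6 in control replicates 1 to 4 and 74.2, 68.7, 64.4 and 65.1 in tRA replicates 1 to 4. All tRA libraries lay below all controls, as they did for 1.63% of all genes tested. Mzb1 had a log2 fold change of -0.32 (FDR 0.757, edgeR's quasi-likelihood test). Of 6 plasma cell genes, Jchain (-0.46), Tnfrsf17 (-0.78) and Sdc1 (-0.17) also had negative values, the other 3 had positive ones, and their part in the Mzb1 value was not tested. Of 8 follicular B cell genes, 7 had a positive and 1 a negative log2 fold change, with a median of 0.13 and the same counts under each of 4 scalings. The summed CPM of these 8 averaged 5067 ± 434 in controls and 5101 ± 372 with tRA (SD, n = 4), and the groups overlapped. None of these 8 had an unadjusted p under 0.05. The highest CPM was that of Ighd, the constant region gene of IgD, with a log2 fold change of 0.16, and the 1 negative gene was Klf2, a regulator of B cell homing, at -0.52. Klf2 averaged 1143 ± 302.5 CPM in controls and 795.5 ± 451.7 with tRA (SD, n = 4). In the summed CPM, this lower mean offset higher means of the other 7. Over all genes tested, 49.7% had a negative log2 fold change.

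To compare the levels of the 9 genes, CPM was divided by exon length. In CPM per kilobase of exon the control means were 254 for Fcer2a, 87.3 for Cr2, 76.2 for Dtx1, 29.6 for Notch2, 18.6 for Cd9, 15.4 for Cd1d1, 15.2 for Hes1, 2.25 for Dll1 and 1.33 for Rbpj. Over the 8 libraries the ranges of Cr2 and Dtx1 overlapped, as did those of Cd9 and Cd1d1 and those of Cd1d1 and Hes1, while the other neighbours in this order were apart. The annotated exons of Rbpj sum to 12750 bases, which enters its value on this scale.

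**Figure D3:**
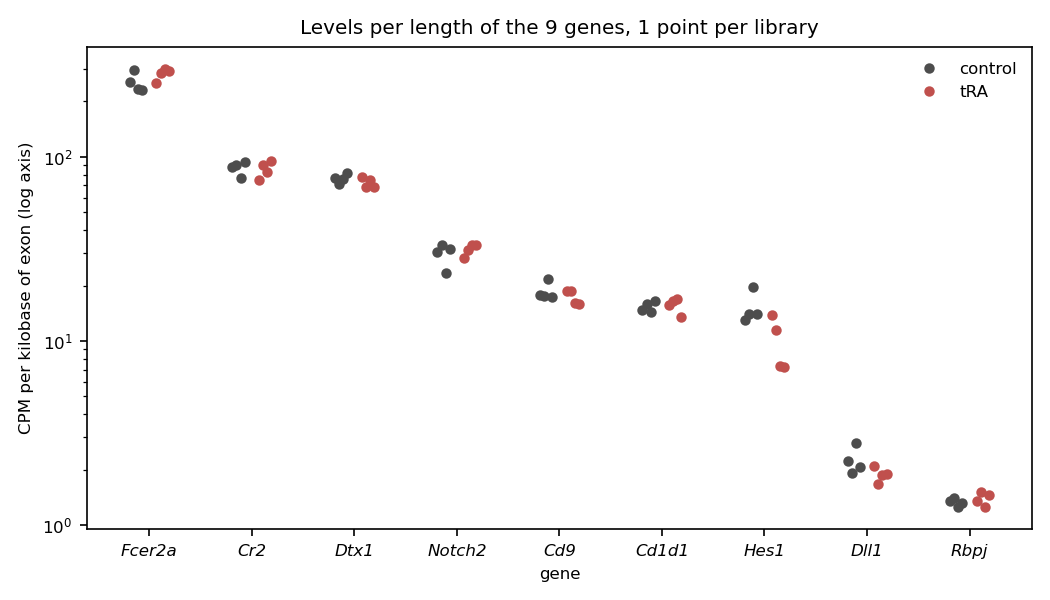
CPM per kilobase of exon (vertical log axis) of the 9 genes, ordered by their control mean, with 1 point for each of the 4 control (grey) and 4 tRA (red) libraries. Fcer2a lies between 229.5 and 300.5 in all libraries, and Rbpj between 1.25 and 1.52.

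The genes whose pattern over the 8 libraries was closest to that of Cr2, by the root mean square (RMS) difference of mean-centred log2 CPM, were Sec24a at 0.0341, Prkdc at 0.0390 and Fam13b at 0.0452. Closest to Fcer2a were Tctn1 at 0.0279, Ssx2ip at 0.0526 and Dguok at 0.0548. Closest to Dtx1 were Crtap at 0.0334, Tpst2 at 0.0377 and Elp5 at 0.0411. These genes follow small differences between libraries, as the RMS deviation of the genes themselves was 0.124 for Cr2, 0.148 for Fcer2a and 0.0826 for Dtx1. Hes1 deviated more, by 0.461, and closest to it were Snhg8 at 0.0963, Snhg12 at 0.122 and Gm26917 at 0.136, where the median over genes was 0.505. Snhg8 and Snhg12 are noncoding hosts of small nucleolar RNAs.

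Promoters of these genes were searched for 2 sets of letters, TGGGAA, the core that Rbpj binds, and AGGTCA, the half-site of retinoid receptors, on both strands. The sequences are those of RefSeq on GRCm38.p6, from 250 bases before to 50 bases after each gene's start, and 11 promoters matched 7 of the 9 genes. Hes1 and Cd1d1 were not matched. TGGGAA was found in 6 of the 11 promoters, from Cr2, Cd9, Fcer2a and Rbpj, while 25.6% of the 32851 promoters in the table hold it. The 2 promoters of Rbpj overlap, and 1 of their sites counts in both. AGGTCA was found in 2 of the 11, from Dll1 and Fcer2a, while 16.3% of all promoters hold it. The 2 motifs share no overlapping match in these windows. Those of Dtx1, Cr2 and Fcer2a are shown because they are the Notch target and the surface markers of the B cell fates, with capitals marking TGGGAA or its reverse complement TTCCCA. The promoter of Dtx1 is chr5:120711620-120711919, that of Cr2 is chr1:195176670-195176969 and that of Fcer2a is chr8:3690812-3691111, all on the minus strand and written 5′ to 3′ along the gene. The starts used for Dtx1 and Fcer2a lie inside the annotated genes. The last 2 were chosen after the matches were seen.
Dtx1: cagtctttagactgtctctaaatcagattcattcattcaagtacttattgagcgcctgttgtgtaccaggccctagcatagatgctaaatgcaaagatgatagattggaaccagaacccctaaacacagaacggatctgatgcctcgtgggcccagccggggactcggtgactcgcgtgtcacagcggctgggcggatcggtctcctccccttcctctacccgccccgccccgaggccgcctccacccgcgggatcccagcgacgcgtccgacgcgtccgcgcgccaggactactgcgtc
Cr2: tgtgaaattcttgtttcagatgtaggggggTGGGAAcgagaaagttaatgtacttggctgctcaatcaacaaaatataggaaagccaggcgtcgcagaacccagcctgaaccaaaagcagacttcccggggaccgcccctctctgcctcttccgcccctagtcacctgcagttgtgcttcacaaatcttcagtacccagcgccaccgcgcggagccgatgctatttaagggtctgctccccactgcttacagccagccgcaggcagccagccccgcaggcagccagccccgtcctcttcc
Fcer2a: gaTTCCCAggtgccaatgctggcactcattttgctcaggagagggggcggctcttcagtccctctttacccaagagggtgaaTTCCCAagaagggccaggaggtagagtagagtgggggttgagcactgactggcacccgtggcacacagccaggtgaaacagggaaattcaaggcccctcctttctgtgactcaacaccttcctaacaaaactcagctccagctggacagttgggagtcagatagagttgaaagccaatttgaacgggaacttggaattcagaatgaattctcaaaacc
In Cr2 the match begins 220 bases before the start. In Fcer2a, 2 matches on the reverse strand begin 248 and 168 bases before this start, and 3.79% of all promoters hold 2 or more. Of the other 2 promoters of Fcer2a, the 1 at the annotated start of the gene (chr8:3694125-3694424) holds no TGGGAA, and the other holds 1. The Dtx1 window holds neither set of letters, and no window at the annotated start of Dtx1 was searched. A match of this kind describes the letters and was not tested as a binding site.

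Genes of another cell type were also measured. Neutrophil precursor genes, which encode granule proteins, had a summed CPM of 542, 680, 716 and 614 in control replicates 1 to 4 and 242, 301, 329 and 477 in tRA replicates 1 to 4. In this sum all tRA libraries lay below all controls, as in 6 of the 8 genes, while Lcn2 and Mpo overlapped. Over all genes tested, the tRA libraries lay below all controls for 1.63%. All 8 genes had a negative log2 fold change and an unadjusted p under 0.05, against 3.55% of all genes in that direction. This list was chosen with earlier results of these data known, so the shares over all genes do not test it. Ngp was highest in CPM, and Ctsg was the 1 gene that averaged under 1 CPM. None of the 8 reached an FDR under 0.1 in the quasi-likelihood test of edgeR, the lowest being 0.135 for Camp. The paper, which used DESeq2 on the same comparison, lists Camp, Ngp and Ltf among its significant genes. The part of the 8 genes in the values of the B cell and Notch genes was not tested.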

How the data were processed

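Total splenocytes of 8 mice were sequenced after TruSeq v2 library preparation, and the authors deposited raw counts per gene. The paper names Tophat2 and HTSeq, whereas the submitters' processing notes name STAR 2.5.2b, featureCounts 1.5.1 and DESeq2 1.26.0 on GRCm38. Strand use in counting is not given in the sources used here. A deposited table of the authors' own DESeq2 comparison was not used. Of 51826 gene identifiers, 51633 matched GENCODE M21, which gave symbols, positions and exon lengths. In R 4.3.3, counts were filtered with filterByExpr (minimum count 10), scaled by TMM and tested with edgeR 4.0.16 (quasi-likelihood, FDR under 0.1). DESeq2 1.42.0 and limma 3.58.1 served as alternatives, beside other scalings, filters, the replicate number as a block and each library left out in turn. Tables and plots were made in Python 3.11.15 with pandas 2.3.3 and matplotlib 3.10.9, and the fits were tested on simulated data. Library totals ranged from 30919272 to 37539631. Replicate pairs within a group differed by more than counting noise (chi-square per degree of freedom at least 14.1). This value covers counting error only, the replicates are separate mice, and no conclusion is drawn from it. The members and the 23 gene lists were chosen with earlier results of these data known. The genes named are the members, every tested Notch gene, and in other lists the most abundant gene, any gene with an unadjusted p under 0.05 and the gene with the largest log2 fold change. For Cr2, Fcer2a, Dtx1 and Hes1, the 3 genes with the closest pattern are named. Proteins of Cd1d1 and Cd1d2 were not used here.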

Additional observations from a re-analysis of the deposited data

Results flagged for a closer look

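Hes1 in control replicate 3, at 40.0 CPM, stood far from the other 3 control libraries, with a gap that made up 0.838 of the whole range of the group. Cd9 in the same library, at 44.4 CPM, stood apart in the same way, with a gap of 0.903 of the range. These were 2 of 18 groups of 4 libraries examined, where chance flags about 1 in 20 groups, or 0.9 here.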

How the results depend on the processing

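Over 17 alternatives, 0 of the 9 genes had an FDR under 0.1 in any, and 146 of 153 log2 fold changes kept their sign. The 7 that reversed were all close to 0. Cr2 turned to 0.0061 with the library total alone. With 1 library left out, Cr2 ranged from -0.088 to 0.038, Cd1d1 from -0.0095 to 0.095 and Notch2 from -0.021 to 0.143. Hes1 ranged from -0.81 to -0.46 and stayed negative in all 17. Its unadjusted p exceeded 0.05 only without control replicate 3 (0.0544), and without control replicate 2 Fcer2a (0.0304) and Dll1 (0.049) were under it. Among all genes, the number with an FDR under 0.1 was 1 with pan-B scaling, 6 with no filter, 44 with DESeq2, 27 with DESeq2 and no filter (an alternative chosen after seeing the data), 1 with limma-voom, and 0 to 3 with 1 library left out, the 3 being without tRA replicate 4. The causes were not tested. The labels used here link tRA and control libraries only by a replicate number, and whether same-numbered libraries share anything else is not known. Their deviations correlated at 0.157, -0.0229, -0.014 and 0.259, which cannot settle this. The replicate block left 0 genes called and gave Hes1 -0.64. The medians of the 23 lists moved by less than the spread between libraries in 377 of 391 cases. Counts limit little for Cr2 or Fcer2a, whereas Dll1 rests on 2352 counts over 8 libraries.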

Other observations

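Genes of other B cell stages were measured in the same libraries, and none reached an FDR under 0.1 by the quasi-likelihood test of edgeR. Of 6 plasma cell genes, 3 had a positive and 3 a negative log2 fold change. An unadjusted p under 0.05 was found for 2, both lower with tRA, as 3.55% of all genes were. Jchain, the joining chain of secreted IgM and IgA, was the most abundant and had 574, 537, 604 and 722 CPM in control replicates 1 to 4 and 367, 541, 428 and 436 in tRA replicates 1 to 4. Only tRA replicate 2 reached the control range, and the log2 fold change was -0.46. Tnfrsf17, the survival receptor BCMA of plasma cells, averaged 1.86 CPM in controls and 1.08 with tRA, with a log2 fold change of -0.78 and groups that did not overlap. It was a low transcript, with 31 to 95 counts per library. Sdc1, the gene of the plasma cell marker CD138, had a log2 fold change of -0.17 and also no overlap. All tRA libraries lay below all controls for 1.63% of all genes tested. Of 6 germinal centre genes, 4 had a positive and 2 a negative log2 fold change. S1pr2, which keeps B cells in the germinal centre, had 0.35 and was the 1 of these 6 with an unadjusted p under 0.05. Over all genes tested, 2.94% were higher with tRA at this threshold. Of 4 transitional B cell genes, 1 had a positive and 3 a negative value, with Vpreb3 at -0.27. Of 12 pan-B genes, 6 had a positive and 6 a negative value, with Ms4a1, the gene of CD20, at 0.20.

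Among cells that need Notch2 or lie beside the marginal zone, 5 of 7 genes of Notch2-dependent cDC2 had a positive log2 fold change, with Cd209a at 0.27. Cd209a was the 1 of these 7 with an unadjusted p under 0.05. Of 7 marginal zone and red pulp macrophage genes, 3 had a positive and 4 a negative value, with Marco, a scavenger receptor of marginal zone macrophages, at 0.38. Of 9 T cell genes, 7 had a positive and 2 a negative value. Cd28, at 0.22, was the 1 of these 9 with an unadjusted p under 0.05. Of 4 genes of NKT cells and the Cd1d pair, 2 had a positive and 2 a negative value. Of 8 platelet genes, 5 were tested, with 2 positive and 3 negative values and Pf4 at -0.49. Of 10 follicular dendritic cell and stroma genes, 7 were tested, with 3 positive and 4 negative values and Coch at -0.40. Of 7 endothelial genes, 6 had a positive and 1 a negative value, with Kdr at 0.33, and the most abundant was Pecam1, at 240.0 CPM on average and a log2 fold change of 0.00169.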
